A study of Mus musculus with 12 samples.

Results

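Nuclear genes for mitochondrial proteins are switched on by a small set of DNA-binding factors and the coactivators that work with them. The genes described here are 10 of these regulators, taken by name from 21938 protein-coding genes. They are the DNA-binding factor NRF1 (Nrf1), the 3 subunits of the GA-binding protein GABP (Gabpa, Gabpb1 and Gabpb2), the estrogen-related receptors ERRα and ERRγ (Esrra and Esrrg), YY1 (Yy1), and the coactivators of the PGC1 family (Ppargc1a, Ppargc1b and Pprc1). Each gene was examined over its body and 20 kb on either side in the mouse genome mm10, with the gene models of GENCODE vM21.

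The data are 3 peak lists from mouse liver, made by ChIP-seq, in which DNA bound by a protein or carrying a histone mark is pulled down with an antibody and sequenced. The LSD1 list came from wild-type C57BL/6 mice. The H3K4me2 lists came from control and LSD1-LKO livers on the same strain background. In this study LSD1-LKO mice were LSD1 fl/fl mice that received AAV8-TBG-Cre as adults, and controls were LSD1 fl/fl mice given AAV8-TBG-GFP, so that the floxed allele was shared by both groups and Cre was driven by the hepatocyte promoter of Tbg, which spares the other liver cell types. Whether LSD1 was lost from the LSD1-LKO livers was not measured in these lists, because LSD1 ChIP was done in wild-type liver only. Each list holds only peaks found in both of its 2 libraries, so a gene without a listed peak may still have had one in a single library, and library depth is unknown. After injection, LSD1-LKO and control mice received a high-fat diet for some weeks in the general methods of the study. The methods for ChIP-seq name no diet of their own, and a list gives no value per animal. In the H3K4me2 lists several peaks of the first-listed library often fell within 1 broader peak of the second-listed one, with 43891 entries on 35149 second-listed peaks in control and 50675 on 38292 in LSD1-LKO, so values are given for both libraries. Hepatocyte markers (Alb, Apoa1, Ttr, Serpina1a, Cyp2e1 and Hnf4a) carried promoter H3K4me2 in both genotypes for 6 of 6 genes, beside 12417 of all 21938 protein-coding genes.

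LSD1 is a histone demethylase that removes methyl groups from mono- and dimethylated lysine 4 or lysine 9 of histone H3. H3K4me2 marks active or poised promoters and enhancers, and at an active promoter it usually flanks a start site from which the nucleosomes have been cleared. NRF1, GABP and YY1 bind the promoters of genes for respiratory chain subunits and for the mitochondrial transcription and translation machinery, ERRα and ERRγ add the energy metabolism genes of oxidative tissues, and the PGC1 coactivators are recruited by these factors and raise their output. In the liver, PGC1α is also known for its induction in fasting and its part in gluconeogenesis.

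LSD1 was listed at the promoter of a minority of these regulators, a share between the background values for all genes and for marked genes. Promoters reached 1 kb up- and downstream of each annotated transcription start site (TSS) of a gene. Of the 10 regulators, 3 had an LSD1 promoter peak, namely Nrf1, Esrra and Pprc1, beside 24.6% of all protein-coding genes and 38.6% of the protein-coding genes that had an H3K4me2 promoter peak in either list. Within the gene bodies and flanks, 8 of the 10 had at least 1 LSD1 peak, beside 51.5% of all protein-coding genes. Only Gabpa and Gabpb1 had none. There were 13 LSD1 peaks in these windows, of which 3 lay at a promoter of the regulator itself, 3 at the promoter of a neighbouring gene and 7 away from any protein-coding promoter. The same split over the windows of all protein-coding genes is not given here, so it cannot be read as particular to these regulators.

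As a group these LSD1 peaks were of ordinary strength for the list, with a median at the 51.8 percentile. Fold enrichment, the ratio of ChIP signal at the summit to local background, ran from 2.0 to 5.87 in the first-listed library and from 1.78 to 5.93 in the second-listed one. Their medians were 3.34 and 2.9, and those of all listed LSD1 peaks were 2.9 and 3.0. Of the 13, 2 reached a p-value of 1e-05 or less in each library, the peak at the Nrf1 start site and the peak at the promoter of Slc25a29 and Slc25a47 in the Yy1 flank. The share of all listed LSD1 peaks that reach it is not given here, so this count cannot be set against the list. The other 11 rest on looser p-values. In the plot of LSD1 fold enrichment these 2 peaks were the highest of the first-listed library. In the second-listed library the Nrf1 peak (4.12) lay below those of Gabpb2 (4.31) and Esrra (4.19).

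**Figure D1:**
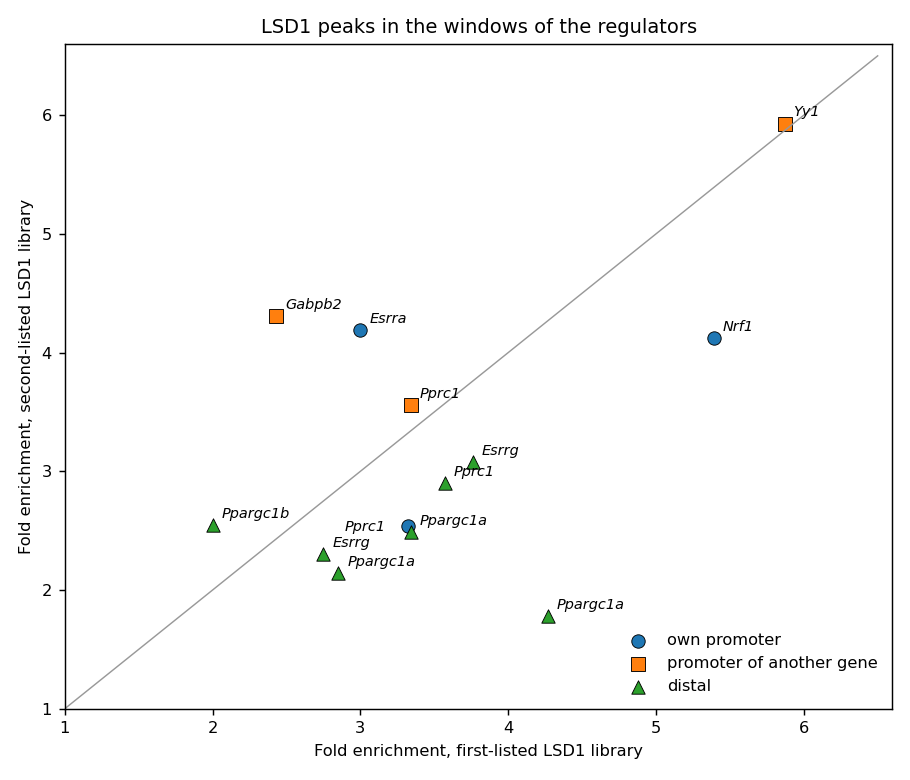
Fold enrichment of the 13 LSD1 peaks within 20 kb of the 10 regulators, in the first-listed library (x axis) and the second-listed library (y axis). Circles are peaks at a promoter of the regulator, squares peaks at the promoter of a neighbouring gene, triangles distal peaks, and the line marks equal values. The Nrf1 promoter peak (5.39 and 4.12) and the peak at Slc25a29 and Slc25a47 in the Yy1 flank (5.87 and 5.93) are the highest along the x axis, and only the latter is apart along the y axis.

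H3K4me2 was present at a promoter of all 10 regulators in both genotypes, beside 59.6% of all protein-coding genes in control and 59.8% in LSD1-LKO. In whole liver, a change in the number of cells that carry the mark cannot be told apart from a change in the mark per cell. The mark was not on every annotated start. When TSSs within 1 kb of each other were joined, the 10 genes had 26 start sites, and H3K4me2 peaks reached 12 of them in the control list and 13 in the other. Among the 14 start sites with a transcript of the consensus coding set (CCDS), 11 and 12 were reached, and among the 12 without one, 1 was reached in each list. The same shares over the start sites of all protein-coding genes are not given here, so these counts cannot be read as particular to these regulators. The map of peak intervals shows how the mark lay around the reference TSS, the most upstream start of a CCDS transcript.

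**Figure D2:**
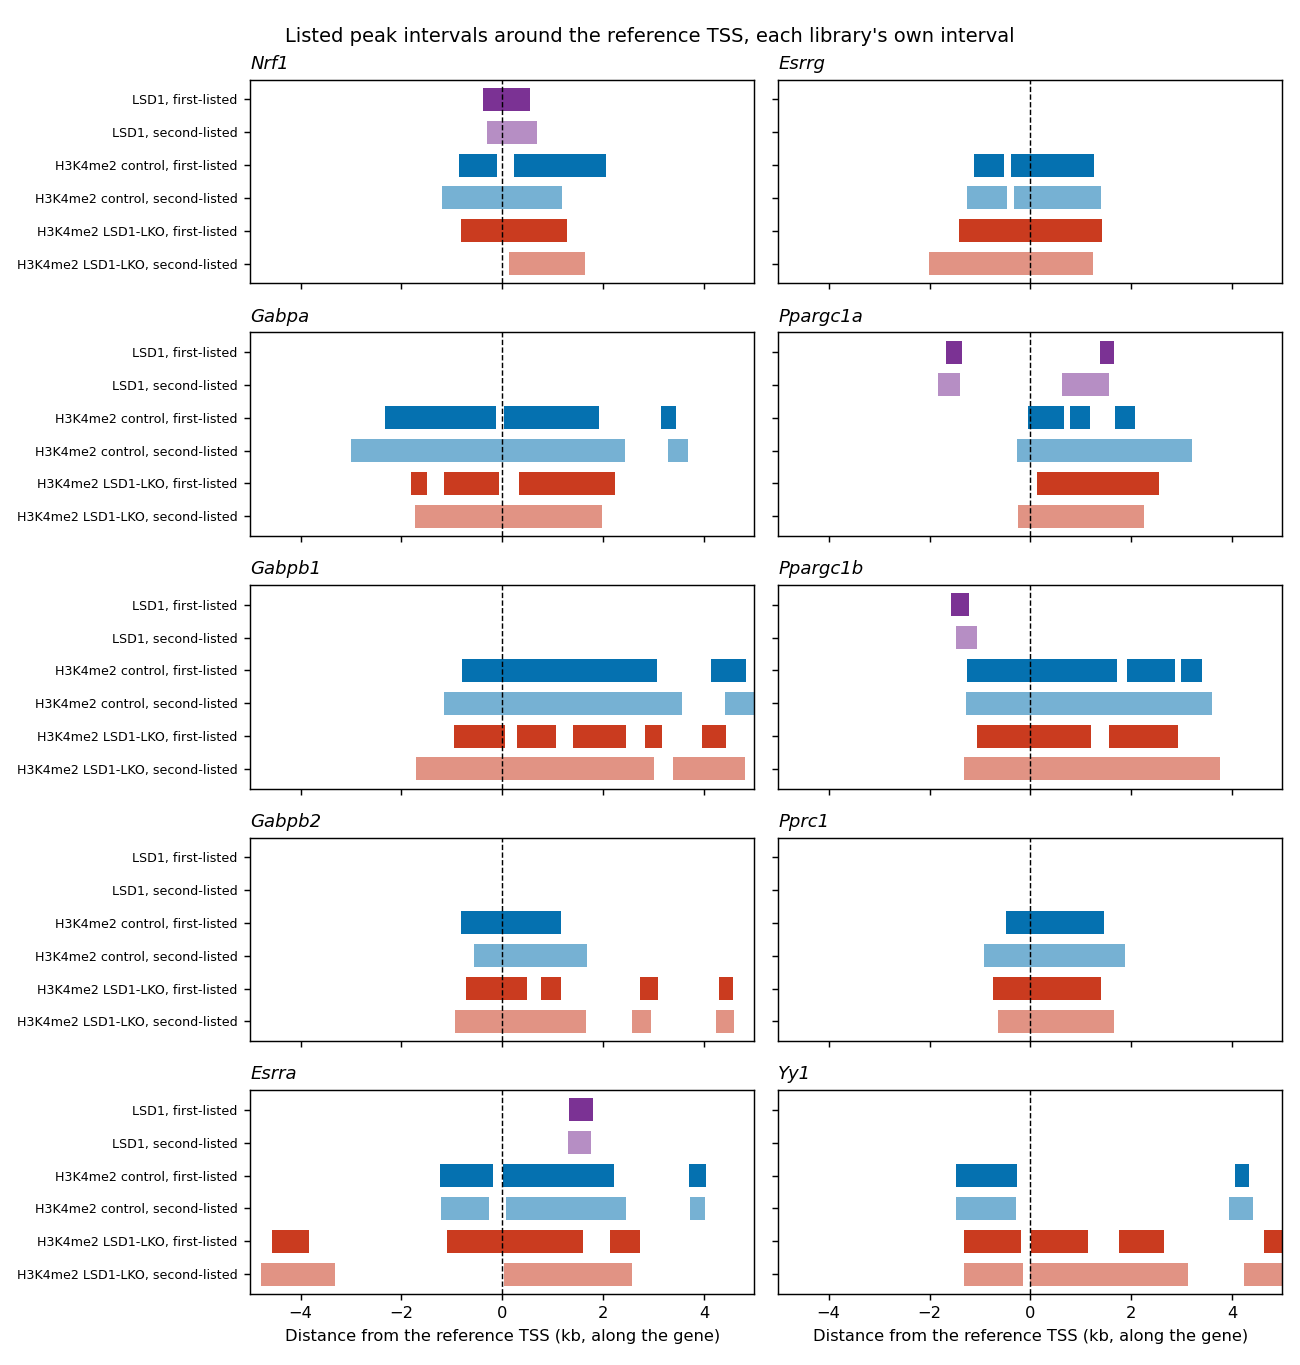
Listed peaks within 5 kb of the reference TSS of each regulator, in kb along the direction of transcription, with the intervals of the first- and second-listed library on separate lines for LSD1 (purple), H3K4me2 in control (blue) and H3K4me2 in LSD1-LKO (red). LSD1 lay over the TSS at Nrf1 alone. Both LSD1-LKO libraries have an interval at and just downstream of the Yy1 TSS that neither control library has.

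Nrf1 encodes the factor that binds GC-rich palindromes in the promoters of respiratory genes. The gene (ENSMUSG00000058440) is on the plus strand of chr6:30047988-30153458. The LSD1 peak at chr6:30047600-30048529 spanned its start, from 388 bp upstream to 541 bp downstream of the TSS. Fold enrichment was 5.39 in the first-listed and 4.12 in the second-listed library, the −log10 p-values were 8.42 and 7.96, and by the mean of these the peak stood at the 95.2 percentile of all LSD1 peaks. It was the only promoter peak of the 10 regulators whose p-value stayed at 1e-05 or less, or whose q-value stayed at 0.05 or less, in each library. No LSD1 peak was listed elsewhere in the Nrf1 window.

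H3K4me2 flanked the Nrf1 TSS in the first-listed control library, with peaks that ran into the LSD1 peak from both sides. One control peak ended 115 bp before the Nrf1 TSS and the next began 223 bp after it, with fold enrichments of 2.21 and 6.11. The second-listed control library had 1 peak across both, from 1205 bp upstream to 1190 bp downstream, with a fold enrichment of 3.91. In LSD1-LKO the first-listed library had 1 unbroken peak from 829 bp upstream to 1291 bp downstream (fold enrichment 7.76), while the peak of the second-listed library began 134 bp after the TSS (5.38). The start was therefore uncovered in 1 library of each genotype, and the libraries did not separate by genotype.

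The 250 bases before the Nrf1 TSS (chr6:30047738-30047987, GRCm38.p6, plus strand, RefSeq) are shown because LSD1 covered all of them. Capitals mark the bases that lay between the 2 first-listed control H3K4me2 peaks. GC made up 76% of this stretch.
Nrf1 upstream: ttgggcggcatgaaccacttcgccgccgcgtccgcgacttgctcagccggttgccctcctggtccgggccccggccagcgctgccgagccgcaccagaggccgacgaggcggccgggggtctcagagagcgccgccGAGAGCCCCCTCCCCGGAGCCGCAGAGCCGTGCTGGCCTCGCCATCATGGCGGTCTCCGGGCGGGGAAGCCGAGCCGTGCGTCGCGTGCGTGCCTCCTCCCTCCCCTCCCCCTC

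Gabpa encodes the DNA-binding subunit of GABP, which recognizes GGAA sites of the ETS family. It is on the plus strand of chr16:84834925-84863779 (ENSMUSG00000008976) and shares a divergent promoter with Atp5j, the gene of a coupling subunit of the mitochondrial ATP synthase. No LSD1 peak was listed in its window. H3K4me2 surrounded the shared promoter in both genotypes. In the first-listed control library, 1 peak ended 134 bp before the TSS and another began 26 bp after it (fold enrichments 5.22 and 2.35), and in the first-listed LSD1-LKO library the corresponding edges were 73 bp before and 328 bp after it (3.2 and 4.41). The second-listed libraries had 1 broad peak over the whole promoter in each genotype, with fold enrichments of 9.36 in control and 7.31 in LSD1-LKO. The single distal peak, in control at chr16:84838079-84838373 in an intron of Gabpa, had a fold enrichment of 2.05 and 2.69 and no LSD1-LKO counterpart.

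Gabpb1 and Gabpb2 encode the subunits that carry the activation domain of GABP. Gabpb1 is on the minus strand of chr2:126627442-126676337 (ENSMUSG00000027361). Like Gabpa, it had no listed LSD1 peak. A control H3K4me2 peak of 3865 bp covered its start in the first-listed library, where 4 LSD1-LKO peaks lay in its place. All 4 overlapped 1 peak of 4721 bp in the second-listed LSD1-LKO library, the outermost of them in part, so the split was seen in 1 library only. The fold enrichments were 5.89 and 6.36 for the control peak, 2.0 to 5.17 for the 4 first-listed LSD1-LKO peaks and 5.66 for the second-listed one.

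Gabpb2, on the minus strand of chr3:95181766-95217916 (ENSMUSG00000038766), was the one regulator whose promoter H3K4me2 ranked higher in both LSD1-LKO libraries than in both control libraries. A rank is the percentile of the highest promoter peak among the listed peaks of its library by −log10 p-value. For Gabpb2 it was 77.6 and 67.5 in the control libraries and 86.7 and 89.0 in the LSD1-LKO libraries. The groups did not overlap, with a mean difference of 15.3 percentile points and an exact two-sided permutation p of 0.333, the smallest that 2 libraries against 2 can give. Of all genes marked in both lists, 17.9% ranked higher in both LSD1-LKO libraries in the same way. A short LSD1-LKO peak (chr3:95208806-95209252, fold enrichments 2.22 and 3.22) lay over a downstream coding start of the gene at position 95208937, where control had no peak. It stood at the 9.57 percentile of the list. The LSD1 peak in the window, at chr3:95228969-95229295, belonged to the shared promoter region of Cdc42se1 and Mllt11 (fold enrichments 2.43 and 4.31), which also carried H3K4me2 in both genotypes.

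Esrra encodes ERRα, an orphan nuclear receptor that PGC1 coactivators use to reach oxidative metabolism genes. It is on the minus strand of chr19:6910977-6921813 (ENSMUSG00000024955). Its LSD1 peak at chr19:6920008-6920490 was not at the main start but 1318 to 1800 bp downstream of it, over the exon that holds the start codon. It counted as a promoter peak through an alternative TSS at position 6921051. Fold enrichment was 3.0 and 4.19, the −log10 p-values were 3.63 and 6.17, and the peak stood at the 73.2 percentile of the list. It was no longer counted when promoters were 500 bp either side of the TSS or placed at the end of the gene record only.

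H3K4me2 covered the Esrra LSD1 peak in both control libraries and in the second-listed LSD1-LKO library, and the first-listed LSD1-LKO peak ended within it, 1591 bp from the TSS. The fold enrichments of the promoter peak that reached this region were 4.32 and 9.55 in control, against 8.5 and 7.16 in LSD1-LKO. Both control libraries left the TSS itself uncovered, between a downstream peak and an upstream one that ended 189 bp and 264 bp before it. In LSD1-LKO the first-listed peak covered the TSS, and the second-listed one began 36 bp after it. The centre of the LSD1 peak (chr19:6920100-6920399, GRCm38.p6, minus strand, RefSeq) is shown because it places LSD1 in coding sequence, with the bases of the coding exon in capitals from the start codon on.
Esrra LSD1 peak centre: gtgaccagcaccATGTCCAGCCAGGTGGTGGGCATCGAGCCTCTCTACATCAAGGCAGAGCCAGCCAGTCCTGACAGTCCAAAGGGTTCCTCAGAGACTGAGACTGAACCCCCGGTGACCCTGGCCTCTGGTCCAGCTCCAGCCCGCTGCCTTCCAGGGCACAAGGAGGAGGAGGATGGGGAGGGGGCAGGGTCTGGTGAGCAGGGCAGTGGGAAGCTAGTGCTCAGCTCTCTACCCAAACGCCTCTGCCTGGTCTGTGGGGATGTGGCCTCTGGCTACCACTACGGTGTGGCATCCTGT

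Esrrg encodes ERRγ, a close relative of ERRα. With 606095 bp it was the longest of the 10 genes (plus strand of chr1:187608791-188214885, ENSMUSG00000026610). Both of its start sites carried H3K4me2 in both genotypes, with 2244 bp covered in control and 2656 bp in LSD1-LKO at the upstream start and 670 bp and 330 bp at the downstream one (positions 187997827 to 187997868). At the upstream start, fold enrichments of the main peak were 5.22 and 11.5 in control, against 5.54 and 7.88 in LSD1-LKO. At the downstream start they were 4.85 and 4.68 in control, against 2.59 and 3.58 in LSD1-LKO, lower in both LSD1-LKO libraries than in both control libraries. Fold enrichments of separate lists depend on their own libraries, and this pair was picked after its values were seen, so it was given no test. The share of all start sites with such a pattern is not given here. By the rank of the highest promoter peak, 16.4% of all genes marked in both lists were lower in both LSD1-LKO libraries. The 2 LSD1 peaks of the window, at chr1:187599607-187599922 in the upstream flank and chr1:187742978-187743720 in an intron, overlapped no H3K4me2 peak of either list. Their fold enrichments were 2.75 and 2.3 for the one and 3.76 and 3.08 for the other.

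Yy1, a zinc finger factor that can activate or repress, showed the largest change in covered promoter length of the 10 genes, by the intervals of either library. The gene (ENSMUSG00000021264) is on the plus strand of chr12:108792973-108820148. Within 1 kb of the TSS, control had the mark upstream only, in a peak that ended 262 bp before the TSS in the first-listed and 288 bp before it in the second-listed library (fold enrichments 6.34 and 4.3). In LSD1-LKO the same upstream peak was present (5.41 and 4.82), and a further peak began at the TSS, 4 bp after it in the first-listed and 11 bp before it in the second-listed library (3.32 and 7.34). That second-listed peak ran 3131 bp into the gene, and the first-listed library had another peak within it. The control list covered 739 bp of the promoter and the LSD1-LKO list 1821 bp by the first-listed intervals, and 713 bp and 1862 bp by the second-listed ones. Only 1.41% of 13777 genes covered in either list gained at least as much by the intervals of both libraries, a share read after Yy1 had been seen to be extreme. The gain fell to 85 bp when each library had to reach a p-value of 1e-05, because the −log10 p-value of the added peak was 4.13 in the first-listed one. At that threshold the change was larger at Nrf1 (1052 bp) and Gabpb1 (-1021 bp), with promoters of 2 kb it was larger at Pprc1 (1390 bp against 1297 bp at Yy1), and with promoters of 500 bp it was larger at Gabpb1 (-592 bp against 582 bp).

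LSD1 had no peak at the Yy1 promoter. The LSD1 peak of the window, at chr12:108835574-108835994, was the strongest of the 13 (98.1 percentile) and lay at the divergent promoter of Slc25a29 and Slc25a47, which encode mitochondrial carriers. The 300 bases before the Yy1 TSS (chr12:108792673-108792972, GRCm38.p6, plus strand, RefSeq) are shown because the control mark ended in them. Capitals mark the bases past the end of both control peaks. They hold 1 match to TGACGTCA, the cyclic AMP response element.
Yy1 upstream: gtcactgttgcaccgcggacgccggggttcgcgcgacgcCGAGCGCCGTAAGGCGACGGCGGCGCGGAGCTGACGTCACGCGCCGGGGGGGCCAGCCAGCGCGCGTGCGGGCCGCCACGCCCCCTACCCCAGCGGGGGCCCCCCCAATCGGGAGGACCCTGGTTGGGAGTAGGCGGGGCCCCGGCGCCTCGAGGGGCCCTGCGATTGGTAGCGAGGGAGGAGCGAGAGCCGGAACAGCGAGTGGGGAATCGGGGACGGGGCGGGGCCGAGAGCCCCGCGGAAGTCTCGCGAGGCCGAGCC

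Ppargc1a encodes PGC1α. It is on the minus strand of chr5:51454250-51567726 (ENSMUSG00000029167) and has an upstream alternative start at positions 51567704 to 51567726, which carried no peak in any of the 3 lists. The mark was at the proximal start, positions 51553871 to 51553922. There the control peak over the TSS had fold enrichments of 4.03 and 8.08. The LSD1-LKO peak, which in the first-listed library began 127 bp after the TSS, had values of 5.17 and 5.15. The ranks were 69.6 and 90.2 in control, against 90.6 and 64.3 in LSD1-LKO, so the libraries of each genotype differed more from each other than the genotypes did.

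Ppargc1a had 3 LSD1 peaks, the most of the 10 genes together with Pprc1, and none of them was at its promoter. One began 1372 bp downstream of the proximal TSS (chr5:51552260-51552550, fold enrichments 3.34 and 2.49), and its partner in the second-listed library reached to 620 bp from the TSS, so that with the second-listed library alone Ppargc1a also had an LSD1 promoter peak. Another lay 1351 to 1678 bp upstream (chr5:51555273-51555600, 2.85 and 2.14). The third, at chr5:51527581-51528428, was inside an intron 25918 bp downstream of the TSS. It had fold enrichments of 4.27 and 1.78. By first-listed intervals it was the only one of the 7 distal LSD1 peaks that overlapped H3K4me2 in both genotypes. The H3K4me2 fold enrichments there were 2.98 and 3.37 in control, and 2.95 and 3.85 for the stronger LSD1-LKO peak. The rank of the LSD1 peak was 83.4 in one library and 1.19 in the other, so its strength was not repeated between libraries.

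Both Ppargc1a elements are shown, the 250 bases before the proximal TSS (chr5:51553923-51554172) because H3K4me2 marked this start and not the upstream one, and the centre of the intronic LSD1 peak (chr5:51527855-51528154) because H3K4me2 of both LSD1-LKO libraries and of the second-listed control library reached into it, on the minus strand of GRCm38.p6 from RefSeq. Capitals mark a match to the cyclic AMP response element TGACGTCA, through which fasting signals are known to reach this promoter. The first-listed control peak ended before the intronic stretch, over another part of the LSD1 peak. The intronic element held no match to any of the motifs searched.
Ppargc1a proximal: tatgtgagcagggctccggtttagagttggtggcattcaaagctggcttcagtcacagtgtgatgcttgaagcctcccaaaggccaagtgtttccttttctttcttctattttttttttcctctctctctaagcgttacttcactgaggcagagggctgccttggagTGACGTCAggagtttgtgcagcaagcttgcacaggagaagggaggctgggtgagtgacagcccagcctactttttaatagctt
Ppargc1a intronic: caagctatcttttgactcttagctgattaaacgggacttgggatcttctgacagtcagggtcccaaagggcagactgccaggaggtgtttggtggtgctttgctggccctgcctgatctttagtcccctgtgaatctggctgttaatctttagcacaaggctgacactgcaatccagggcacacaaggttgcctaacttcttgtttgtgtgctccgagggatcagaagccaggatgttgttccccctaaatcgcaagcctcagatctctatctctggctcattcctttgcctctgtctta

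Pprc1 encodes PRC, the PGC1-related coactivator, and is on the plus strand of chr19:46044886-46072915 (ENSMUSG00000055491). Its LSD1 promoter peak at chr19:46044429-46044725 had fold enrichments of 3.32 and 2.54 and stood at the 46.7 percentile. It was not at a coding start of Pprc1. The peak overlapped the TSS region of a single noncoding transcript of Pprc1 at position 46044886, which faces the promoter of Ldb1, a LIM domain cofactor gene, and its centre lay in an intron of Ldb1. At the coding start sites of Pprc1 (positions 46056539 to 46057259), no LSD1 peak was listed. With the starts of protein-coding transcripts alone, 2 regulators, Nrf1 and Esrra, had an LSD1 promoter peak. H3K4me2 marked both start regions in both genotypes, with 1906 bp covered in control and 1715 bp in LSD1-LKO at the Ldb1 side, and 1961 bp and 2137 bp at the coding start. The sequence of this LSD1 peak (GRCm38.p6, plus strand, RefSeq) is shown in lower case throughout because none of the motifs searched matched it.
LSD1 peak at Ldb1 and Pprc1: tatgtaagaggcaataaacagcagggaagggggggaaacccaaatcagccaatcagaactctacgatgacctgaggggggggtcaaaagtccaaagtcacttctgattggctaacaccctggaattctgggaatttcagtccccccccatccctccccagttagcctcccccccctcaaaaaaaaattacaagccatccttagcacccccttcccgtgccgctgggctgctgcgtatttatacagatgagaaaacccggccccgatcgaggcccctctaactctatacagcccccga

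Ppargc1b encodes PGC1β, which in liver is known for its link to lipid synthesis and lipoprotein secretion, and is on the minus strand of chr18:61298136-61400431 (ENSMUSG00000033871). All 2032 bp of its promoter were covered by H3K4me2 in both lists and by the intervals of every library. The fold enrichments of the peak over the start were 5.12 and 9.16 in control, against 4.7 and 8.0 in LSD1-LKO. An LSD1 peak lay just outside the promoter, 1216 to 1581 bp upstream of the TSS (fold enrichments 2.0 and 2.55, 9.62 percentile), at the upstream edge of the control H3K4me2 peak and beyond the first-listed LSD1-LKO one.

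Across the 10 genes, promoter H3K4me2 did not move one way. By the first-listed intervals, the covered promoter length was lower in LSD1-LKO for 4 genes, higher for 5 and equal for Ppargc1b, beside 59.8% of all covered genes lower and 39.9% higher. The median change was 16.5 bp for the 10 genes and -114 bp for all covered genes. By the second-listed intervals, 5 were lower, 2 higher and 3 equal, beside 42.4% of all covered genes lower and 52.6% higher. The median of the 10 genes was then -11 bp and that of all covered genes 25 bp, so both medians changed sign with the library. Ppargc1a and Pprc1 were lower by both sets of intervals and Gabpb2 and Yy1 higher by both, which is 2 of 10 in each direction beside 30.4% of all covered genes lower and 26.4% higher. Of these 4, only Yy1 kept its direction under all 8 alternatives run on covered length. Gabpb2 went from 72 bp to -379 bp with the end of the gene record and to -375 bp with a p-value of 1e-05 or a q-value of 0.05 required in each library, and Pprc1 from -15 bp to 1390 bp with promoters of 2 kb and to 176 bp with protein-coding starts. Ppargc1a turned from -78 bp to 424 bp with promoters of 2 kb and to 196 bp with the p-value threshold. The changes at Nrf1 (311 bp and -1134 bp), Esrra (33 bp and -712 bp) and Esrrg (72 bp and -76 bp) had opposite signs. Nrf1 and Esrra had an LSD1 promoter peak, as did Pprc1, which was lower by both sets of intervals. Esrrg had none.

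**Figure D3:**
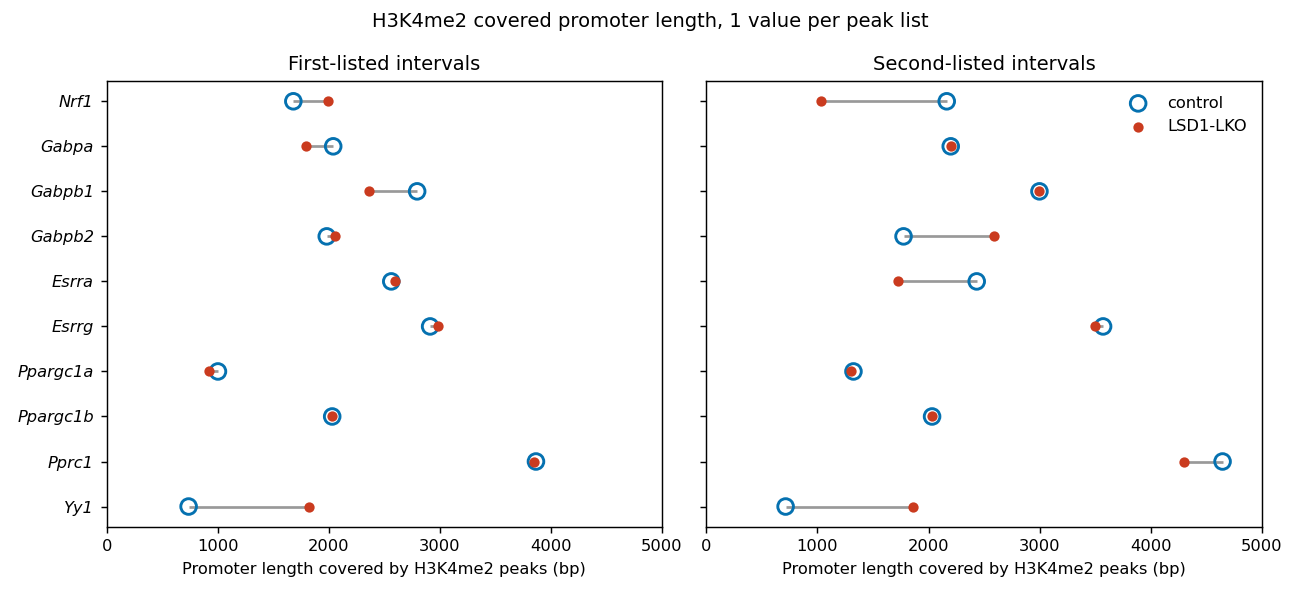
Promoter length in bp covered by H3K4me2 peaks in control (open blue circles) and LSD1-LKO (red points) for each regulator, by the intervals of the first-listed library (left) and the second-listed library (right), 1 value per list. Yy1 gained in both panels (739 to 1821 bp and 713 to 1862 bp), and Nrf1 moved in opposite directions.

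Ranks of the highest promoter peak overlapped between the genotypes at all of the genes but Gabpb2. The mean rank was higher in LSD1-LKO for 7 genes and lower for 3, with a median difference of 1.92 percentile points, beside 0.505 over all genes marked in both lists. The share of all marked genes with a higher mean rank is not given here, so the counts of 7 and 3 cannot be read as particular to these regulators. No gene ranked lower in both LSD1-LKO libraries than in both control libraries, a pattern that 16.4% of all marked genes had, and Gabpb2 alone ranked higher in both, as 17.9% of all marked genes did. In the other 9 the libraries of the genotypes overlapped, with exact two-sided permutation p-values of 0.667 or 1. Yy1 had a mean difference of 16.5 points, but its control libraries lay at 93.1 and 54.8, on either side of the LSD1-LKO values of 92.6 and 88.3.

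**Figure D4:**
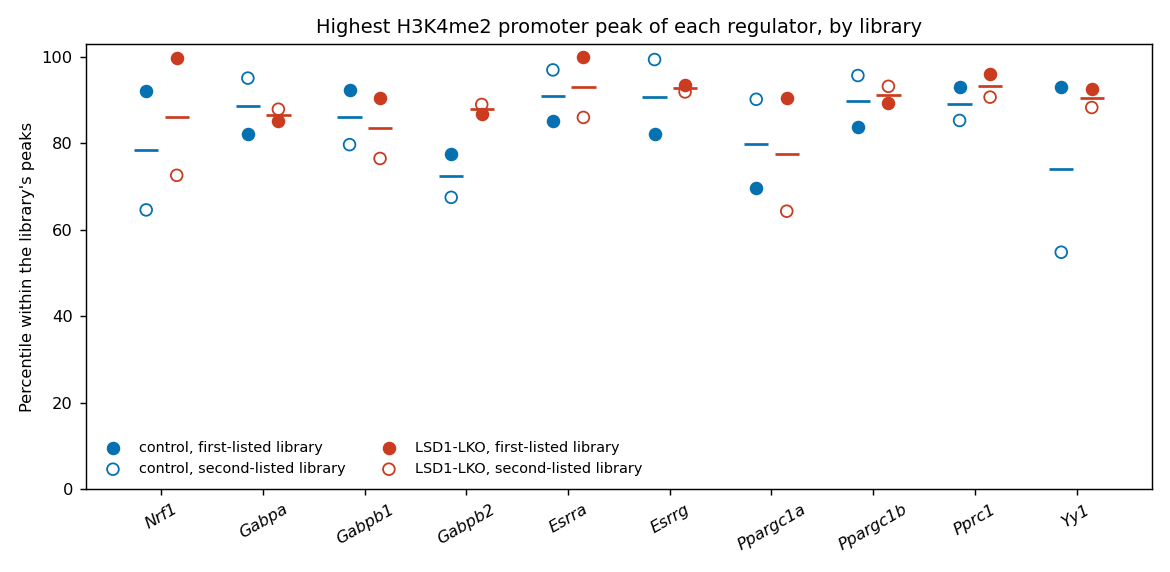
Percentile of the highest H3K4me2 promoter peak of each regulator among the listed peaks of the same library, by −log10 p-value, for the 2 control libraries (blue) and the 2 LSD1-LKO libraries (red), with filled circles for the first-listed and open circles for the second-listed library and bars for the means. Gabpb2 is the only gene whose LSD1-LKO libraries (86.7 and 89.0) both lie above its control libraries (77.6 and 67.5).

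Whether the TSS was covered depended on the library. The reference TSS was uncovered by first-listed peaks at 4 of the 10 regulators in control (Nrf1, Gabpa, Esrra and Yy1) and at 3 in LSD1-LKO (Gabpa, Ppargc1a and Yy1), beside 34.4% and 43.5% of all genes marked in both lists. By second-listed peaks it was uncovered at Esrra and Yy1 in control and at Nrf1 and Esrra in LSD1-LKO, beside 18.3% and 19.2% of those genes. The uncovered TSS lay between peaks on either side at Gabpa, at Nrf1 and Esrra in control and at Yy1 in LSD1-LKO, whereas the other cases had a promoter peak on 1 side only. At Yy1 the first-listed LSD1-LKO peak missed the TSS by only 4 bp.

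Away from promoters, the H3K4me2 peaks around these genes ranked lower than those at their promoters, and the shares found in both genotypes were near those of all genes. There were 32 distal peaks in control and 39 in LSD1-LKO, 23 and 28 of them inside gene bodies. Of the control peaks, 16 (50%, 95% Wilson interval 33.6 to 66.4%) overlapped an LSD1-LKO peak, beside 53.8% of the distal control peaks around all protein-coding genes. Of the LSD1-LKO peaks, 18 (46.2%, 31.6 to 61.4%) overlapped a control peak, beside 48.5%. These intervals cover counting error only. Peaks that were not shared ranked lower, with a median percentile of 24.4 against 37.9 for shared peaks in control. In LSD1-LKO the medians were 16.5 against 46.0. At the regulators' own promoters they were 77.9 in control and 80.8 in LSD1-LKO. These percentiles combine both libraries and run over every entry, so entries on 1 broad second-listed peak share its p-value. The promoter medians cover 17 control and 20 LSD1-LKO entries, on 14 distinct second-listed peaks in each list.

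The distal peaks were most numerous at Esrrg, with 6 in control and 9 in LSD1-LKO, and at Ppargc1b, with 9 and 7. Nrf1 and Gabpa had at most 1. Among the control peaks with no LSD1-LKO overlap was one of 923 bp in Esrrg (chr1:187651697-187652619, fold enrichments 4.78 and 3.96), which lies over internal starts that RefSeq, but not GENCODE vM21, annotates. The distal peak of Nrf1, in the downstream flank at chr6:30173285-30174834, had fold enrichments of 4.67 and 5.73 in LSD1-LKO and overlapped a control peak that lay beyond the 20 kb limit. In Gabpb1, an intronic peak at chr2:126666018-126666590 was listed in LSD1-LKO alone (4.06 and 4.3).

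**Figure D5:**
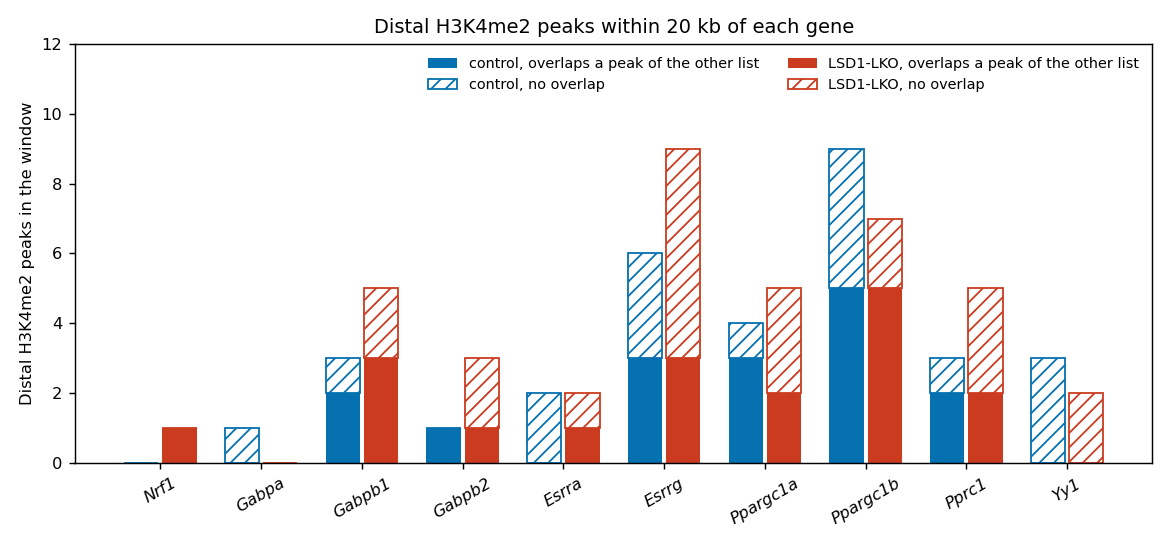
Number of distal H3K4me2 peaks within the gene body and 20 kb around each regulator in control (blue) and LSD1-LKO (red). Filled parts overlap a peak of the other list and hatched parts do not, with 16 of 32 control peaks and 18 of 39 LSD1-LKO peaks overlapping.

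Of the 7 distal LSD1 peaks, 3 overlapped an H3K4me2 peak in either list, beside 47.2% of the distal LSD1 peaks around all protein-coding genes, and 4 overlapped none. By first-listed intervals, the 3 were the intronic peak of Ppargc1a in both genotypes, the peak downstream of the proximal Ppargc1a start in LSD1-LKO only, and the Ppargc1b peak in control only. By second-listed intervals, each of the 3 overlapped H3K4me2 in both genotypes, so the difference between genotypes was seen in 1 library only.

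The promoters of the regulators were also searched for exact matches, on both strands, to the motifs of the same factors. These were GCGCATGCG for NRF1, CCGGAAGT for GABP, CAAAGGTCA for ERR and AAGATGGCG for YY1. The motif TGACGTCA for CREB, which is not one of the 10 regulators, was searched as well. RefSeq gave 14 promoter windows of 300 bases for 9 of the 10 genes. Of these, 13 held no match and 1 did, the window of Gabpa, which held the YY1 letters, found in 1.4% of all 32851 windows. The shares of all windows were 1.75% for the NRF1 letters, 3.89% for GABP, 0.478% for ERR and 1.79% for TGACGTCA. None of the 13 LSD1 peaks held any of the motifs over its whole length, while among the 300-base centres of all 14584 LSD1 peaks the shares ran from 0.713% for TGACGTCA to 1.91% for GABP. The TGACGTCA matches of Yy1 and Ppargc1a lay outside the RefSeq windows, in the stretches before the GENCODE starts.

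A list of 30 other regulators of mitochondrial gene expression was set beside these 10. Of the 30, 17 had an LSD1 promoter peak, beside 24.6% of all protein-coding genes and 38.6% of those with an H3K4me2 promoter peak in either list. Among them was Sirt1, which encodes an NAD-dependent deacetylase that acts on PGC1α (fold enrichments 4.91 and 8.14). Others were Prkaa1, which encodes a catalytic subunit of AMP-activated protein kinase (6.11 and 6.47), and Sp1 (4.52 and 5.77). Tfam, Tfb1m and Tfb2m, which encode the factors that bind or modify mitochondrial nucleic acids, also had one (3.34 and 4.46, 4.98 and 2.69, 3.01 and 5.34). The peaks at Nrip1, Thrb and Nfe2l1 were the lowest in rank (31.0, 39.4 and 40.1 percentile). An H3K4me2 promoter peak was listed in both genotypes for 29, all but Perm1, beside 12417 of all 21938 protein-coding genes. The covered promoter length by first-listed intervals was lower in LSD1-LKO for 23 of the 30 and higher for 5, with a median of -279.5 bp, beside 59.8% of all covered genes lower and a median of -114 bp. By second-listed intervals it was lower for 14 and higher for 14, with a median of 0 bp. Beside this, 42.4% of all covered genes were lower and 52.6% higher, with a median of 25 bp. The difference between this list and the 10 regulators was not tested.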

How the data were processed

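The livers were wild type for LSD1, and control and LSD1-LKO for H3K4me2, with 2 ChIP libraries per group and 12 samples with the control libraries, which the labels call input and the study's methods IgG. Per the labels and the methods, the authors mapped reads to mm10 with Bowtie 2, called narrow peaks in each library with MACS and kept peaks shared by both libraries with BEDtools 2.25.0. The deposited fold enrichment is a ratio of ChIP signal to local background. The deposited −log10 p-values and −log10 q-values are the authors' MACS output for each library. Some listed peaks have p-values above the threshold that the methods name for MACS. Another 12 columns of per-library values (scores and summit offsets) were not used. No file gives read counts, so depth is unknown.

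Peak positions are those of the first-listed library unless said otherwise, with an overlap of at least 1 bp. A second-listed peak paired with several entries was counted once in ranks within the second-listed library. Percentiles that combine the 2 libraries were taken over every entry. There, entries on the same second-listed peak shared its p-value. Promoters were 1 kb around every GENCODE vM21 TSS of protein-coding genes. Ranks of 2 libraries against 2 were compared with a two-sided exact permutation test, whose p-values measure only the spread between these libraries. The other comparisons are descriptions without a test. Chromosome lengths of the lists were checked against GRCm38.p6, the overlap code was tested on simulated data, and promoter overlaps were checked with bedtools 2.31.1. The calculations used Python 3.11.15, scipy 1.17.1, pandas 2.3.3, numpy 2.4.6 and, for figures, matplotlib 3.10.9.

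The 10 genes and the list of 30 other regulators were chosen with earlier results of these data known. All 10 genes are named, and other genes only where they share a promoter with one of them, hold a peak in its window, or are on the list of 30. Hepatocyte markers were checked as well. The alternatives were promoters of 500 bp or 2 kb or at the end of the gene record, windows of 10 kb or 50 kb, p-values at or below 1e-05, q-values at or below 0.05, the second-listed library alone, the union of both libraries' peaks and an overlap of 50% of the narrower interval. The starts of protein-coding transcripts only, and the start-site gaps of the second-listed library, were added after seeing the data.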

Additional observations from a re-analysis of the deposited data

How the results depend on the processing

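The count of 3 regulators with an LSD1 promoter peak rose to 5 with promoters of 2 kb, which add Ppargc1a and Ppargc1b, and fell to 1, Nrf1, with a p-value at or below 1e-05 or with a q-value at or below 0.05 in both libraries. It was 4 with the second-listed library alone or the union, and 2 with promoters of 500 bp, the end of the gene record or protein-coding transcripts only. The 13 LSD1 peaks in the windows became 24 with windows of 50 kb and 2 with either stricter threshold. The distal H3K4me2 peaks fell from 32 to 5 and 15 in control and from 39 to 4 and 13 in LSD1-LKO with the p-value and q-value thresholds, where the share of control peaks that overlapped an LSD1-LKO peak was 20% with the p-value threshold. The median change in covered promoter length was 16.5 bp, -71.5 bp with promoters of 500 bp, 54.5 bp with promoters of 2 kb and -11 bp with the second-listed library alone, the single library left out in turn that the lists allow. Among single genes, Gabpa turned from -241 bp to 5 bp and 933 bp with the p-value and q-value thresholds, and Ppargc1a from -78 bp to 424 bp with promoters of 2 kb and to 196 bp with the p-value threshold. Nrf1 turned from 311 bp to -462 bp with promoters of 2 kb and to -171 bp with the union, Gabpb2 from 72 bp to -379 bp with the end of the gene record and to -375 bp with either threshold, Esrrg from 72 bp to -206 bp with promoters of 500 bp and to -81 bp with protein-coding transcripts only, and Pprc1 from -15 bp to 1390 bp with promoters of 2 kb and to 176 bp with protein-coding transcripts only. Nrf1 (-1134 bp), Esrra (-712 bp) and Esrrg (-76 bp) also turned with the second-listed library alone. Gabpb1 and Yy1 kept their direction wherever they were not equal. The cause of these changes was not tested, beyond the fewer peaks that a stricter threshold leaves. H3K4me2 promoter peaks were at 9 or 10 of the 10 genes in both lists under every alternative run. No paired analysis was possible because the columns of the lists carry no replicate numbers. Depth is unknown, and peaks found in 1 library only are not listed.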
